A study of Mus musculus with 10 samples.

Results

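The MYC, MAX and MXD network is a family of basic helix-loop-helix leucine zipper transcription factors. Of the 43346 genes in the deposited count table, 10 were taken by gene symbol: the activators *Myc*, *Mycn* and *Mycl*, their partner *Max*, the repressors *Mxd1*, *Mxd3*, *Mxd4*, *Mxi1* and *Mnt*, and the MAX-like gene *Mlx*. All 10 were found, and all 10 had enough counts to be tested in every comparison. The data came from 10 RNA libraries of the murine line O9-1, which stems from cranial neural crest cells. The groups were wildtype cells (n = 4 samples of the unedited line), Kat5 ko clones (n = 3) and Ep400 ko clones (n = 3). Kat5 is the acetyltransferase and Ep400 the chromatin remodeling ATPase of the Tip60/Ep400 complex. Each ko line was grown from a single sorted cell after CRISPR/Cas9 editing of *Kat5* or *Ep400*, and some of the edited *Ep400* alleles keep their reading frame with a short deletion, though the labels do not say in which libraries. The wildtype samples were not single-cell clones, so loss of the gene and the cloning step cannot be told apart within either comparison with wildtype.

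MYC, MYCN and MYCL bind DNA at E-box motifs as dimers with MAX and raise transcription, in part by recruiting TRRAP-containing acetyltransferase complexes, of which Tip60/Ep400 is one. MXD1, MXD3, MXD4, MXI1 and MNT compete for MAX and for the same motifs, and recruit SIN3 and histone deacetylases. MLX pairs with some of these repressors and with the glucose-sensing factors MLXIP and MLXIPL. In growing progenitor cells, MYC-type dimers are known to drive ribosome and nucleotide synthesis, whereas several MXD genes are raised when cells stop dividing and differentiate.

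RefSeq promoter windows on GRCm38.p6, from 250 bases before to 50 bases after an annotated start, were found for 9 of the 10 genes, and *Myc* had none in the table used here. The E-box CACGTG, which reads the same on both strands, occurred in the windows of 4 genes, namely *Max*, *Mlx*, *Mnt* and *Mxd4*. It occurred in 7.15% of all 32851 windows and for 8.09% of the 27025 genes with a window. The stretches with this motif are shown because they are the letters to which the dimers of this network are known to bind, with the motif in capitals and each on the coding strand of its gene.

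Mxd4, chr5:34187897-34187956, minus strand: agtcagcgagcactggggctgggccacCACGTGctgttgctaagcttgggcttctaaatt

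Mnt, chr11:74830774-74830833, plus strand: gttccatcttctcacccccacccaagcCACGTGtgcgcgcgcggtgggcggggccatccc

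Mlx, chr11:101087223-101087276, plus strand: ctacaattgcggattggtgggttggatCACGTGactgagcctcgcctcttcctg

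Max, chr12:76962246-76962278, minus strand: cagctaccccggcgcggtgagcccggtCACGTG

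The window of *Mycn* is shown because *Mycn* was the member with the largest difference in the data. It held no CACGTG, but 2 copies of TTTGGCGC (in capitals, searched on both strands), the letters of an E2F-type motif. This motif was found for 0.585% of genes with a window and for none of the other members that had a window, which leaves out *Myc*.

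Mycn, chr12:12941970-12942046, minus strand: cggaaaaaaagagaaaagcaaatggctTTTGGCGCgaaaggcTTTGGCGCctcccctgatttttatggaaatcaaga

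A match describes the letters of these windows and is not a measured binding site, since no binding data were examined here.

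Between 30968945 and 48301792 reads per library had been counted on genes, so that 1 count stood for 0.0219 to 0.0327 CPM (counts scaled to library size). The targeted genes were lower in their own clones. *Kat5* had 49.2 to 58.3 CPM in wildtype and 16.3 to 23.0 CPM in Kat5 ko clones, and *Ep400* had 158 to 168 CPM in wildtype and 54.4 to 60.4 CPM in Ep400 ko clones. Of 20 cranial neural crest markers, 14 were above 1 CPM in every library, whereas *Sox10* and *Foxd3*, which mark early migratory crest, had no count in any. The summed level of the 20 markers was 4340 to 5977 CPM in wildtype, 2886 to 4158 CPM in Kat5 ko clones and 6474 to 11089 CPM in Ep400 ko clones, and the part of this shift in the results was not tested. The most abundant of them in every library was *Crabp1*, at 2340 to 4113 CPM in wildtype, 946 to 2081 CPM in Kat5 ko and 3946 to 8408 CPM in Ep400 ko clones. Other crest markers did not follow the sum, such as *Sox9*, at 58.7 to 83.3 CPM in wildtype and 40.1 to 55.9 CPM in Ep400 ko clones. Of markers of other cell types, those of pluripotent, muscle and endothelial cells summed to at most 1.64 CPM in every library. Neuronal markers summed to 2.54 to 5.09 CPM in wildtype, 1.51 to 9.60 CPM in Kat5 ko and 5.04 to 22.8 CPM in Ep400 ko clones, and their part in the results was not tested. Epithelial markers summed to 1.63 to 4.76 CPM in wildtype and to at most 0.896 CPM in ko clones, blood markers to at most 7.68 CPM and Schwann markers to at most 6.05 CPM in any library.

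In wildtype O9-1 cells, *Myc* was the most abundant transcript of the network per length. FPKM values, which are CPM per kilobase, were computed from CPM and the summed exon length of each gene. *Myc* stood at 52.2 ± 12.1 FPKM (SD, n = 4), followed by *Mlx* at 19.3 ± 1.15, *Max* at 15.2 ± 0.411, *Mnt* at 11.96 ± 3.06 and *Mxi1* at 10.4 ± 0.199 FPKM. *Mxd4* (5.14 ± 1.93) and *Mxd3* (5.04 ± 0.660) formed a middle pair, and *Mxd1* (1.75 ± 0.592), *Mycl* (1.21 ± 0.580) and *Mycn* (1.05 ± 0.323 FPKM) were lowest. The ranges of *Myc*, *Mlx* and *Max* did not overlap. Ranges did overlap between *Max* and *Mnt*, between *Mnt* and *Mxi1*, between *Mxd4* and *Mxd3*, and among *Mxd1*, *Mycl* and *Mycn*, so the order within these neighbours is not resolved. With the longest transcript as length in place of all exons, *Max* stood at 28.1 FPKM, above *Mlx* at 19.6, *Mxi1* at 14.1, above *Mnt* at 12.1, and *Mxd4* and *Mxd1* at 9.42 and 2.65 FPKM, while *Myc* remained first at 60.6 FPKM. The wildtype spread differed between members. *Mxi1* and *Max* varied by 1.04-fold and 1.07-fold between the lowest and the highest sample, and *Mxd4* and *Mxd1* by 2.86-fold and 2.51-fold.

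**Figure D1:**
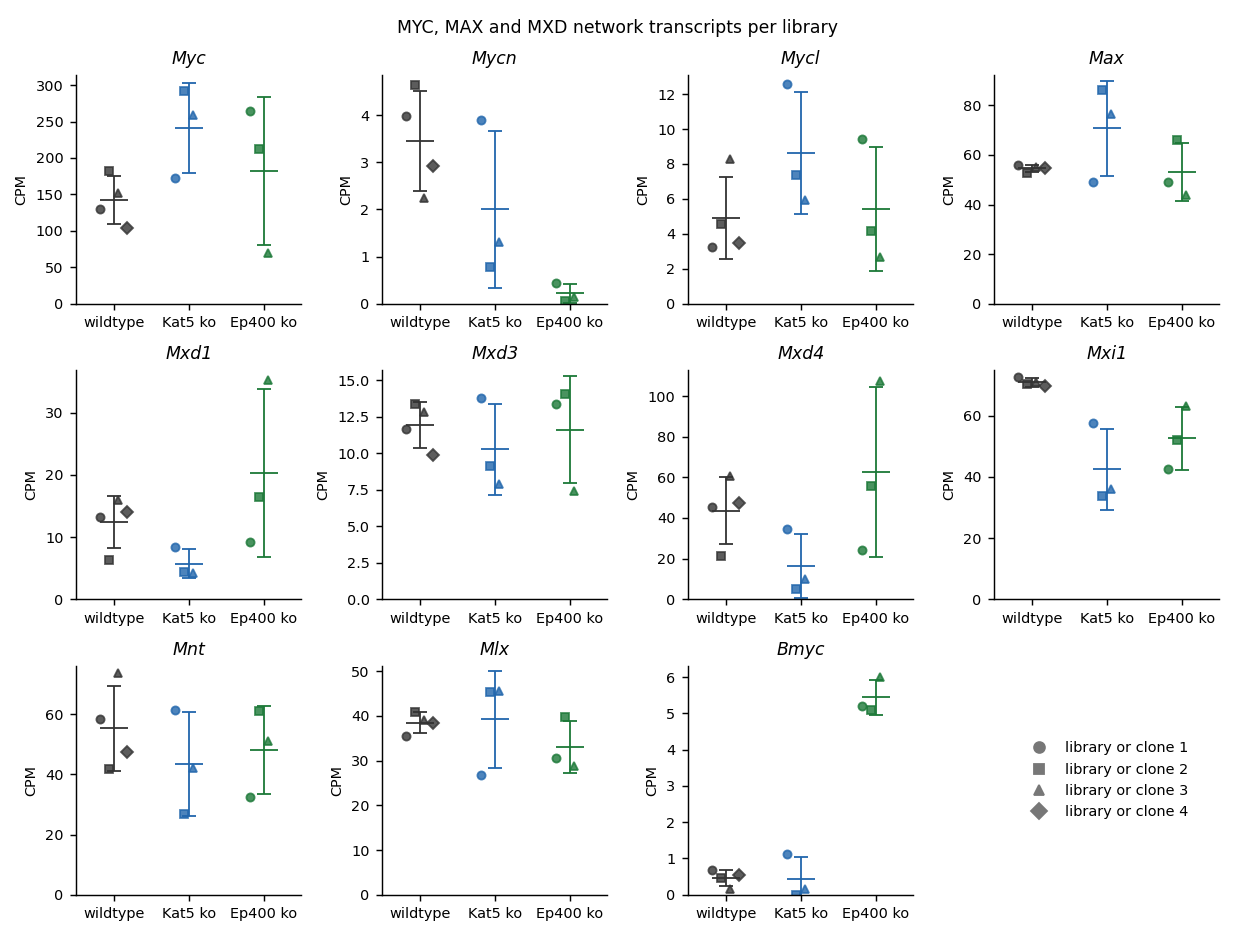
Level in CPM (linear axes from 0) of the 10 network genes and of *Bmyc* in each library of wildtype (black), Kat5 ko (blue) and Ep400 ko (green) cells. Symbols give the sample or clone number, long bars the group mean and whiskers 1 SD (cut at 0). *Mycn* is near 0 and *Bmyc* at 5.10 to 6.01 CPM in all 3 Ep400 ko clones, and *Mxi1* lies under the wildtype range in all 6 ko clones.

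The first question was which members of the network differed in level after loss of Kat5 or Ep400. Each difference was put to the quasi-likelihood test of edgeR, and p-values were adjusted by Benjamini-Hochberg over all genes tested (edgeR adjusted p). A gene was called at an adjusted p of at most 0.05. p-values measure the spread between these samples and clones. The comparisons with wildtype share the 4 wildtype libraries, so they are not independent of each other. In bulk RNA, less transcript per cell and fewer cells with the transcript cannot be told apart.

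*Mycn*, the MYC paralog best known from neural crest and neural progenitors, was nearly lost in Ep400 ko clones. The 4 wildtype samples had 3.99, 4.63, 2.25 and 2.93 CPM, and Ep400 ko clones 1 to 3 had 0.443, 0.0614 and 0.145 CPM. These values rest on 85 to 159 reads per wildtype library and on 19, 2 and 6 reads in the clones. All clones were thus under the wildtype range, at 12.9%, 1.78% and 4.21% of the wildtype mean, with exact Poisson 95% intervals of 7.74% to 20.1%, 0.216% to 6.44% and 1.55% to 9.17% that cover counting error only. The log2-fold change was −3.90 (SE 0.66), and edgeR called it lower (edgeR adjusted p = 0.00910). It also passed the study's limits on size and count (a log2 change of 1 or more in size and a group mean above 100 normalized counts). The study applied them with DESeq2 p values. With the edgeR adjusted p in their place, 6.4% of all genes passed. *Mycn* was the only one of the 10 members called in this comparison, in which 13.7% of 13836 genes were called. The call was made in each of the 7 fits that left out 1 library, with log2-fold changes of −4.93 to −3.51.

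The loss of *Mycn* was not seen in the genes beside it. *Mycn* lies on chromosome 12 (12936093 to 12941914, minus strand). Its nearest tested neighbours, the pseudogene *Rpl36-ps3* at 23.8 kb and *Ddx1* at 275 kb, had log2-fold changes of −0.18 (SE 0.48, edgeR adjusted p = 0.819) and −0.34 (SE 0.17, edgeR adjusted p = 0.204). The median log2 difference of 457 genes on this chromosome was −0.11, 0.06 and −0.12 in Ep400 ko clones 1 to 3.

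In the Kat5 ko clones, *Mycn* levels differed from clone to clone. They were 3.9 CPM in clone 1, within the wildtype range, and 0.784 and 1.31 CPM in clones 2 and 3, under it. The log2-fold change of −0.79 (SE 0.57) was not called (edgeR adjusted p = 0.444). Between the knockouts, the Ep400 ko clones lay below all Kat5 ko clones, and the difference of −3.17 (SE 0.92) missed the limit (edgeR adjusted p = 0.0675). That *Mycn* was lost to a different degree in the ko lines is therefore not established by this test.

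*Myc* itself was the member with the most abundant transcript in every group, and its level depended on the clone. Wildtype samples had 129.8, 182, 151 and 104 CPM, Kat5 ko clones 173, 292 and 258 CPM, and Ep400 ko clones 265, 212 and 68.9 CPM. Kat5 ko clones 2 and 3 and Ep400 ko clones 1 and 2 were above every wildtype sample, Kat5 ko clone 1 was within the range, and Ep400 ko clone 3 was below it. The log2-fold change was 0.76 (SE 0.24, unadjusted p = 0.0111 and edgeR adjusted p = 0.123 in edgeR's quasi-likelihood test) in Kat5 ko clones and 0.40 (SE 0.40, edgeR adjusted p = 0.520) in Ep400 ko clones. Neither was called. *Pvt1*, the long noncoding RNA gene next to *Myc* on chromosome 15, had 18.3 to 28.7 CPM in wildtype, 20.4 to 25.9 CPM in Kat5 ko clones and 25.6 to 26.5 CPM in Ep400 ko clones. Its log2-fold changes were 0.03 (SE 0.20, edgeR adjusted p = 0.941) and 0.29 (SE 0.18, edgeR adjusted p = 0.307), so *Pvt1* did not show the fall that *Myc* had in Ep400 ko clone 3.

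*Mycl* was low and variable. It had 3.27 to 8.31 CPM in wildtype, 12.6, 7.39 and 5.94 CPM in Kat5 ko clones and 9.40, 4.18 and 2.69 CPM in Ep400 ko clones. Both ko groups overlapped the wildtype samples, and the log2-fold changes of 0.81 (SE 0.41, edgeR adjusted p = 0.278) and 0.18 (SE 0.50, edgeR adjusted p = 0.827) were not called.

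Summed per length, the 3 activators amounted to 49.8, 69.4, 58.5 and 40.1 FPKM in the wildtype samples. The sums were 67.9, 110 and 96.9 FPKM in Kat5 ko clones and 100.0, 79.2 and 26.1 FPKM in Ep400 ko clones. *Myc* made up 93.7% to 98.7% of the sum in every library. The share of *Mycn* was 1.17% to 2.43% in wildtype, 1.74%, 0.217% and 0.412% in Kat5 ko clones and 0.135%, 0.0236% and 0.169% in Ep400 ko clones. Loss of *Mycn* therefore changed the summed activator level by little in comparison with the changes of *Myc*.

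*Bmyc*, which is not among the 10 genes, was the relative that moved opposite to *Mycn*. It encodes a short protein that resembles the amino-terminal part of MYC and lacks its DNA-binding region. Wildtype samples had 0.681, 0.466, 0.159 and 0.541 CPM (6 to 24 reads), and Ep400 ko clones 5.20, 5.10 and 6.01 CPM (223, 166 and 248 reads). The groups did not overlap, and *Bmyc* rose 12.1-fold (log2-fold change 3.60, SE 0.47, edgeR adjusted p = 0.00415). In Kat5 ko clones it had 1.13, 0 and 0.153 CPM, where 0 reads in clone 2 allow up to 0.0980 CPM (3 counts). The log2-fold change there was −0.10 (SE 1.07, edgeR adjusted p = 0.967). Of the summed FPKM of *Myc*, *Mycn*, *Mycl* and *Bmyc*, the share of *Bmyc* was 0.275% to 1.37% in wildtype and 5.03%, 6.15% and 19.0% in Ep400 ko clones.

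*Bmyc* lies on chromosome 2 (25706739 to 25707721, plus strand). Its nearest tested neighbour *Fcna*, which encodes a ficolin and lies 78.7 kb away, was called higher as well (log2-fold change 3.64, SE 0.76, edgeR adjusted p = 0.0183), from 1 to 10 reads per wildtype library to 52, 69 and 32 reads in Ep400 ko clones. *Camsap1*, 219 kb to the other side, had a log2-fold change of −0.33 (SE 0.13, edgeR adjusted p = 0.124). The gene *A230005M16Rik* overlaps *Bmyc* on the opposite strand and had at most 3 reads in any library. Of the other relatives, *Mga*, whose large protein pairs with MAX, and *Mlxip* were not called in either comparison with wildtype, with log2-fold changes from −0.27 to 0.31. *Mlxipl* had at most 3 reads per library, and *Mycs*, an X-linked copy without introns, had none, which allows up to 0.0657 to 0.0980 CPM per library.

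**Figure D2:**
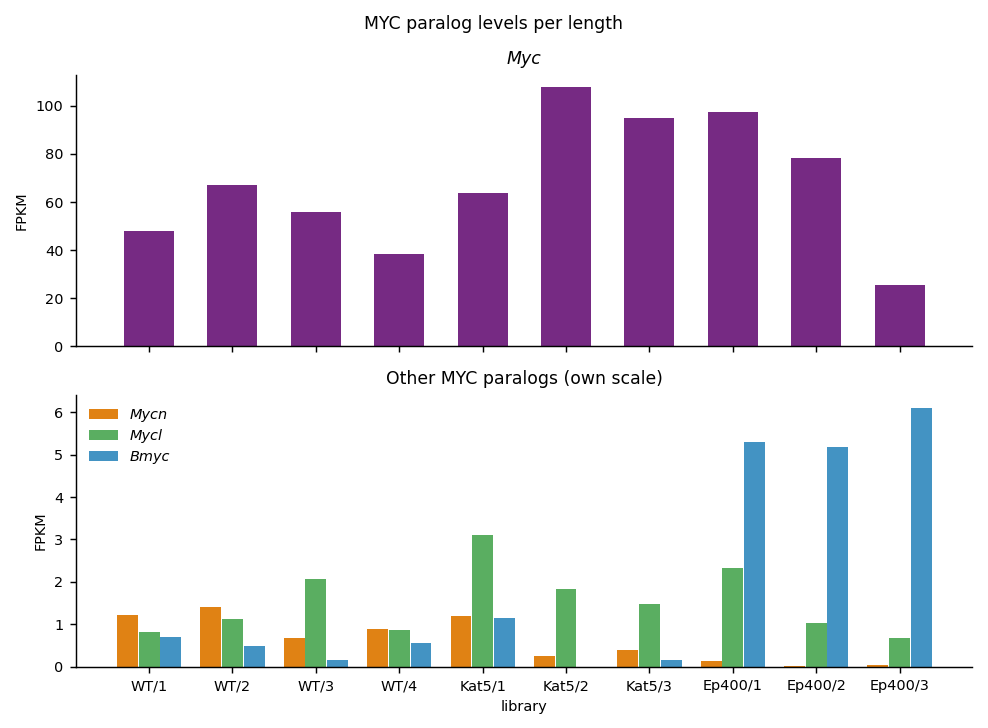
FPKM (linear axes from 0) of *Myc* (upper panel) and of *Mycn*, *Mycl* and *Bmyc* (lower panel, own scale) in each of the 10 libraries. *Myc* exceeds its paralogs in every library, and *Bmyc* is the second most abundant of the 4 in all Ep400 ko clones, at 5.19 to 6.11 FPKM.

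*Max*, the partner that all MYC dimers require, varied little in wildtype and more among clones. It had 56.1, 52.6, 54.9 and 54.7 CPM in wildtype, 49.1, 86.3 and 76.7 CPM in Kat5 ko clones and 49.1, 66.1 and 43.9 CPM in Ep400 ko clones. Kat5 ko clones 2 and 3 and Ep400 ko clone 2 were above the wildtype range and the other ko clones below it, so the clones of a knockout fell on both sides. The log2-fold changes were 0.37 (SE 0.19, edgeR adjusted p = 0.286) and 0.00 (SE 0.16, edgeR adjusted p = 0.997).

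Among the repressors, *Mxi1* had the most uniform difference. Wildtype samples had 72.8, 70.2, 71.1 and 69.7 CPM, Kat5 ko clones 57.8, 33.7 and 35.9 CPM, and Ep400 ko clones 42.5, 52.1 and 63.2 CPM. Every ko clone was under the wildtype range. The log2-fold change was −0.74 (SE 0.20, unadjusted p = 0.00557 and edgeR adjusted p = 0.0966 in edgeR's quasi-likelihood test) in Kat5 ko clones and −0.39 (SE 0.16, unadjusted p = 0.0381 and edgeR adjusted p = 0.132) in Ep400 ko clones, and neither was called. *Mxi1* lies on chromosome 19, which also carries *Kat5* and whose median of 460 genes was −0.10, −0.22 and −0.35 in Kat5 ko clones and 0.25, 0.19 and 0.15 in Ep400 ko clones. With each library centred on its chromosome medians, the log2-fold change of *Mxi1* was −0.53 in Kat5 ko clones and −0.64 in Ep400 ko clones, and the latter was then called (edgeR adjusted p = 0.0400).

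*Mxd1* and *Mxd4*, which are known to rise as cells leave the cycle, shared 1 pattern across the libraries. *Mxd4* had 45.6, 21.1, 60.4 and 47.2 CPM in wildtype, 34.4, 5.10 and 9.99 CPM in Kat5 ko clones and 24.5, 55.9 and 107 CPM in Ep400 ko clones. *Mxd1* had 13.2, 6.32, 15.9 and 14.1 CPM in wildtype, 8.41, 4.44 and 4.25 CPM in Kat5 ko clones and 9.12, 16.4 and 35.3 CPM in Ep400 ko clones. Both were lowest in Kat5 ko clones 2 and 3, highest in Ep400 ko clone 3, and lowest among wildtype samples in sample 2, which had the highest *Myc* of that group. The log2-fold changes in Kat5 ko clones were −1.40 for *Mxd4* (SE 0.63, edgeR adjusted p = 0.233) and −1.12 for *Mxd1* (SE 0.39, unadjusted p = 0.0185 and edgeR adjusted p = 0.150 in edgeR's quasi-likelihood test). In Ep400 ko clones they were 0.57 (SE 0.48, edgeR adjusted p = 0.440) and 0.76 (SE 0.46, edgeR adjusted p = 0.285). Compared directly, all Ep400 ko clones had more *Mxd1* than any Kat5 ko clone, by 1.83 on the log2 scale (SE 0.55, edgeR adjusted p = 0.0726), and *Mxd4* differed by 1.92 (SE 0.78, edgeR adjusted p = 0.140), without a call.

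*Mnt*, the most widely expressed repressor of the family, had 41.7 to 73.8 CPM in wildtype, 61.4, 26.7 and 42.3 CPM in Kat5 ko clones and 32.3, 61.2 and 51.0 CPM in Ep400 ko clones. *Mxd3*, which is known from the S phase of dividing progenitors, had 9.84 to 13.4 CPM in wildtype, 13.8, 9.12 and 7.91 CPM in Kat5 ko clones and 13.4, 14.1 and 7.39 CPM in Ep400 ko clones. *Mlx* had 35.4 to 41.0 CPM in wildtype, 26.7, 45.5 and 45.6 CPM in Kat5 ko clones and 30.7, 39.7 and 28.9 CPM in Ep400 ko clones. All of these overlapped between wildtype and either knockout, with log2-fold changes of −0.35 to 0.02 and adjusted p of 0.461 to 0.999 in edgeR's quasi-likelihood test. *Mxd3* and *Mlx* overlap *Prelid1* and *Psmc3ip* on the opposite strand. *Mxi1* overlaps *AC133451.2* and *Gm10197*, and *Mxd4* overlaps *Gm42846*, also on the opposite strand. On the same strand, *Max* overlaps *Gm47218* and *Mxd1* overlaps *Gm44292*, whose counts are not given here. *Prelid1* had 336 to 413 CPM in wildtype, 503, 310 and 269 CPM in Kat5 ko clones and 323, 275 and 212 CPM in Ep400 ko clones. Whether counting used the strand is not given in the sources used here. *Psmc3ip* had 11.7 to 15.8 CPM in wildtype, 11.6, 19.1 and 20.4 CPM in Kat5 ko clones and 14.1, 10.6 and 5.33 CPM in Ep400 ko clones.

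**Figure D3:**
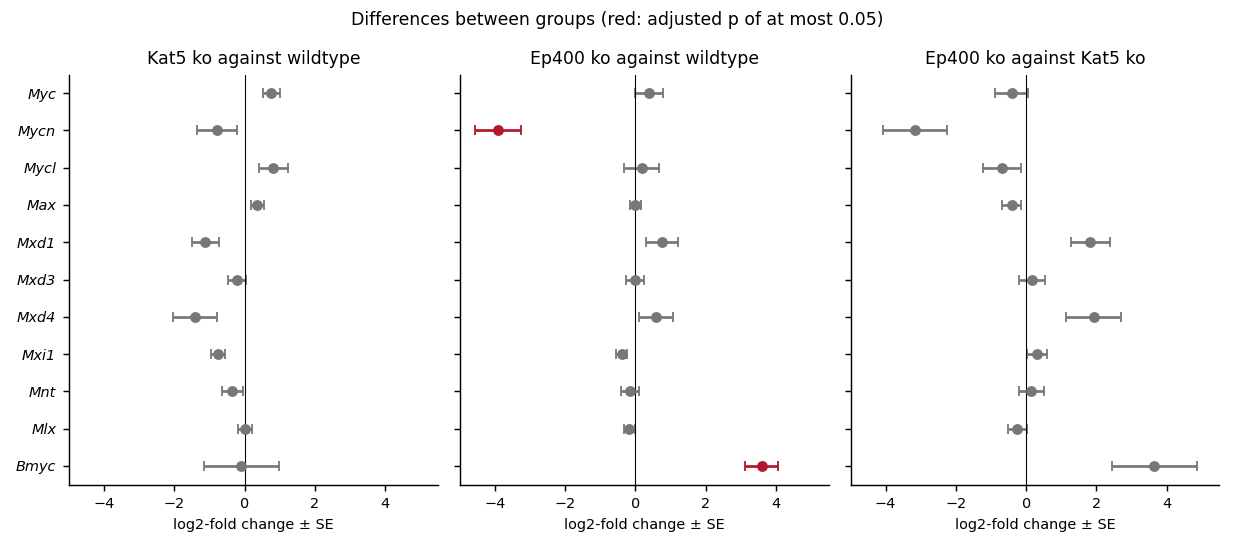
Log2-fold change (points) with its standard error (bars) of the 10 network genes and *Bmyc* in each comparison, from edgeR's quasi-likelihood fits. Red marks an adjusted p of at most 0.05: *Mycn* at −3.90 and *Bmyc* at 3.60, both in Ep400 ko against wildtype.

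Counted over the network, 0 of 10 members were called in Kat5 ko clones, where 0.625% of 13434 genes were called, and 3 had an unadjusted p of at most 0.05, against 22.3% of all genes. DESeq2 called 3 members there (*Myc*, *Mxd1* and *Mxi1*) and 11.1% of all genes. For Ep400, 2 members had an unadjusted p of at most 0.05 (32.2% of all genes). The ko clones did not overlap wildtype for 1 member (19.6% of all genes) in Kat5 ko clones and for 2 members (30.3%) in Ep400 ko clones, *Mxi1* in both and *Mycn* in the latter. Between the knockouts, 0 of 10 were called (7.05% of 13587 genes), 3 had an unadjusted p of at most 0.05 (32.4% of all genes), and 2, *Mycn* and *Mxd1*, did not overlap (38.7%). DESeq2 called 3 members (*Mycn*, *Mxd1* and *Mxd4*) and 22.6% of all genes between the knockouts. These shares are close to or below those of all genes, apart from the DESeq2 count in Kat5 ko clones. The median log2-fold change of the members was −0.29, 0.00 and −0.05 in the 3 comparisons, against 0.00, 0.04 and 0.01 over all genes tested.

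The call count in Kat5 ko clones turned on clone 1. Its *Mxd4* and *Mycn* were within the wildtype range, while those of clones 2 and 3 were under it. *Mxd4* was 0.24 below the wildtype mean on the log2 scale in clone 1 and lower by a log2 difference of −2.98 and −2.02 in clones 2 and 3. *Myc* stood at 0.32, 1.07 and 0.89, *Max* at −0.15, 0.66 and 0.49, and *Mxi1* at −0.30, −1.07 and −0.98 in the same order. Without clone 1, 6 of 10 members were called, *Myc* and *Max* higher and *Mycn*, *Mxd1*, *Mxd4* and *Mxi1* lower. In that fit of 2 clones, 19.4% of all genes were called. Without clone 2 or clone 3, no member was called, and 0.268% and 0.0291% of all genes were. In clone 1, chromosomes 15 (with *Myc*) and 12 (with *Mycn* and *Max*) had medians of −0.37 and −0.28, and the part of such shifts in the values of this clone was not tested.

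The Ep400 ko clones also differed from each other. Clones 1 and 3 lay on opposite sides for *Myc* (log2 differences of 0.93 and −1.01), *Mycl* (1.04 and −0.75), *Mxd1* (−0.36 and 1.59) and *Mxd4* (−0.73 and 1.40), with clone 2 between them. The ratio of the summed FPKM of the 5 repressors to that of the 3 activators was 0.712, 0.408, 0.703 and 0.803 in wildtype, 0.483, 0.144 and 0.201 in Kat5 ko clones and 0.230, 0.451 and 1.57 in Ep400 ko clones. Kat5 ko clones 2 and 3 had the lowest ratios and Ep400 ko clone 3 the highest. Clone by clone, 5 to 9 of the 10 members were outside the wildtype range, beside 55.8% to 71.6% of 13322 genes.

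**Figure D4:**
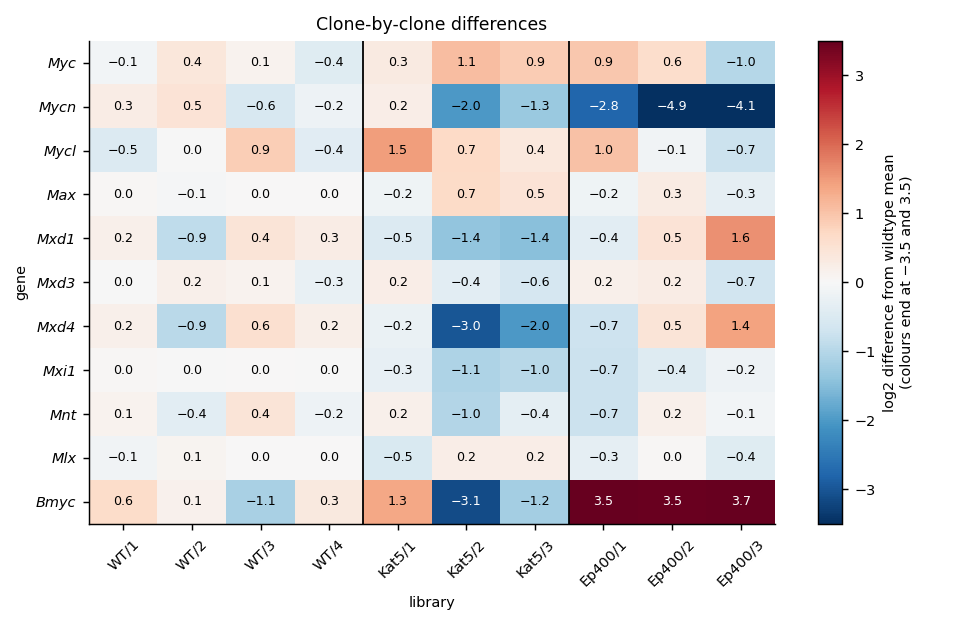
Log2 difference of each library (columns, grouped as wildtype, Kat5 ko and Ep400 ko) from the wildtype mean for each gene (rows), with a prior count of 2. Blue is lower, red is higher and colours end at −3.5 and 3.5. Kat5/2 and Kat5/3 share low *Mxd4*, *Mxd1*, *Mxi1* and *Mycn* with high *Myc* and *Max*, and *Mycn* and *Bmyc* are the rows in which all Ep400 ko clones lie past 2 in 1 direction.

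As a description across the 10 libraries, which share culture conditions and group differences, the most alike pair of members was *Mxd1* and *Mxd4* (Pearson r of log2 CPM 0.942, n = 10 libraries). *Max* was most like *Mlx* (0.819), *Mxi1* and *Mnt* were most like *Mxd4* (0.776 and 0.762), *Myc* was most like *Max* (0.661), *Mycl* was most like *Myc* (0.638), *Mxd3* was most like *Mycl* (0.426), and *Mycn* was most like *Mxi1* (0.384). Among 14028 genes, those with the pattern most like *Myc* were *Nsl1* (0.972), *Map2k3* (0.953) and *Akt1* (0.952). For *Mycn* they were *Aldoa* (0.963), *Praf2* (0.956) and *Cdh3* (0.953).

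The next question was how known targets and cofactors of the network stood in the same clones. A list of 68 genes that MYC is known to activate, mostly ribosome biogenesis factors, metabolic enzymes and chaperones, was written from general knowledge. Earlier results of these data were known when this list and those below were written. All 68 were tested. In Ep400 ko clones 12 were called lower and 1 (*Tfb2m*, a mitochondrial transcription factor, at 0.56) higher, beside 5.72% of all genes called lower and 8% called higher. The median of the list was −0.55, against 0.04 over all genes, and 66 of 68 had a negative log2-fold change. The lowest adjusted p were those of *Hk2*, the hexokinase that starts glycolysis (−1.77, SE 0.20, edgeR adjusted p = 0.00265), *Cad*, which starts pyrimidine synthesis (−1.52, SE 0.24, edgeR adjusted p = 0.00797), *Ldha*, which makes lactate (−1.05, SE 0.24, edgeR adjusted p = 0.0233), and *Hspd1*, a mitochondrial chaperonin (−1.02, SE 0.24, edgeR adjusted p = 0.0269). The number called lower was 2 without any of wildtype samples 1, 2 or 4. In these fits, 5.85%, 7.19% and 6.06% of all genes were called in either direction. It was 4 without Ep400 ko clone 2 (10.1% of all genes) and 26 without Ep400 ko clone 1 (14.3%). Without Ep400 ko clone 3 (12.3% of all genes) the median was −0.29, with 55 of 68 negative and 10 called lower.

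In Kat5 ko clones, 0 of the 68 were called by edgeR, which called 0.625% of all genes, and 32 were called higher by DESeq2, which called 11.1% of all genes in either direction. An unadjusted p of at most 0.05 was found for 45 of the 68, against 22.3% of all genes. The median was 0.65, against 0.00 over all genes, and 66 of 68 had a positive log2-fold change. Without clone 1, 55 were called higher and all 68 were positive, with 19.4% of all genes called in either direction. Compared directly, 11 of 68 were called lower in Ep400 than in Kat5 ko clones (2.83% of all genes were), with a median of −1.27. *Hk2* (−2.63, SE 0.31, edgeR adjusted p = 0.0204), *Cad* (−2.43, SE 0.40, edgeR adjusted p = 0.0294), *Polr1b*, a subunit of RNA polymerase I (−1.91, SE 0.35, edgeR adjusted p = 0.0328), and *Nme1*, a nucleoside diphosphate kinase (−1.55, SE 0.32, edgeR adjusted p = 0.0390), came first. This count was 43 without Kat5 ko clone 1, where 18% of all genes were called in either direction. It was 1 without Kat5 ko clone 2 (0.571% of all genes) and 5 without Ep400 ko clone 1 (2.45%). It was 0 without Kat5 ko clone 3 (0.0356%) or Ep400 ko clone 2 (0.207%) or 3 (0.0218%). The signs of the 3 medians were the same under every scaling tried.

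Clone by clone, the level of these 68 genes did not simply follow that of *Myc*. Their median log2 difference from the wildtype mean was 0.12, 0.98 and 0.77 in Kat5 ko clones 1 to 3, in which *Myc* stood at 0.32, 1.07 and 0.89. In Ep400 ko clones the median was −0.14, −0.53 and −1.34, whereas *Myc* stood at 0.93, 0.61 and −1.01. In Ep400 ko clones 1 and 2, *Myc* was therefore above and the list below the wildtype mean, with 42 and 62 of the 68 genes below it. The share of all genes below the mean is not given here. In Ep400 ko clone 3 both were lower, and 65 of 68 genes were under the wildtype range. In that clone, 71.6% of 13322 genes were outside the wildtype range in either direction. The 4 wildtype medians were −0.11 to 0.11. Wildtype sample 3 showed the same split as Ep400 ko clone 1, with *Myc* at 0.12 and the list at −0.11. In that sample, 50 of the 68 genes were below the wildtype mean.

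**Figure D5:**
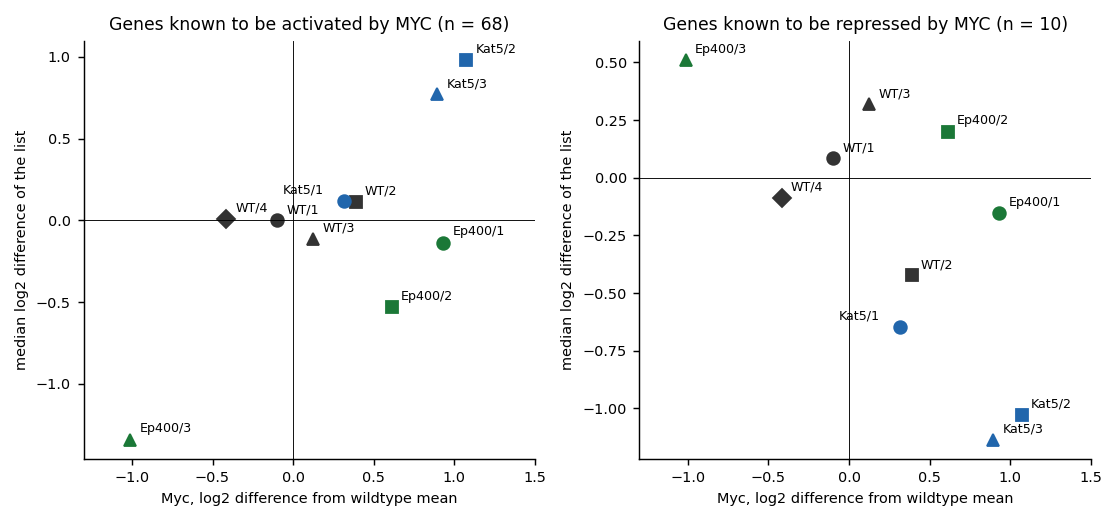
Each point is 1 library (black wildtype, blue Kat5 ko, green Ep400 ko; symbols as sample or clone number). The x axis gives the log2 difference of *Myc* from the wildtype mean, and the y axis the median log2 difference of 68 genes known to be activated (left) or 10 genes known to be repressed (right) by MYC. Ep400/1 and Ep400/2 lie right of 0 and, for activated genes, under 0, unlike Kat5/2 and Kat5/3 at 0.98 and 0.77.

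Of 12 genes that MYC is known to repress, 10 were tested in Kat5 ko clones and none was called (0.625% of all genes), with a median of −1.08 and 6 at an unadjusted p of at most 0.05 (22.3% of all genes). The log2-fold change was negative for 8 of the 10 and positive for 2. Of the 6, *Thbs1* was higher (2.11, SE 0.66, unadjusted p = 0.0126 in edgeR's quasi-likelihood test). DESeq2 called 3 of the 10 lower, and 11.1% of all genes in either direction. In Ep400 ko clones 11 were tested and 3 called (13.7% of all genes). *Cebpa*, a differentiation factor (3.42, SE 0.75, edgeR adjusted p = 0.0223), and *Pdgfrb*, a growth factor receptor (0.95, SE 0.27, edgeR adjusted p = 0.0497), rose, and *Ndrg2* fell (−4.24, SE 0.64, edgeR adjusted p = 0.00652). The number called higher was 0 without wildtype sample 1 (5.85% of all genes called) or 4 (6.06%) or Ep400 ko clone 3 (12.3%). In each of these fits 1 was called lower. Without Ep400 ko clone 1, 3 were called higher (14.3%). Against Kat5 ko clones, *Pdgfrb* (1.78, SE 0.26, edgeR adjusted p = 0.0252) and *Gas1*, a growth arrest gene (2.05, SE 0.36, edgeR adjusted p = 0.0313), were higher in Ep400 ko clones. That count was 0 without Kat5 ko clone 2 (0.571% of all genes called) or 3 (0.0356%) or Ep400 ko clone 2 (0.207%) or 3 (0.0218%). It was 3 without Kat5 ko clone 1 (18%) and 2 without Ep400 ko clone 1 (2.45%).

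The corepressors and cofactors of the network were counted in the same way, beside shares over all genes called of 0.625% in Kat5 ko clones, 13.7% in Ep400 ko clones and 7.05% between the knockouts. Of 18 SIN3 and histone deacetylase corepressor genes, 0 were called in Kat5 ko clones (1 at an unadjusted p of at most 0.05, against 22.3% of all genes), and in Ep400 ko clones *Ing1* was lower (−0.84, SE 0.15, edgeR adjusted p = 0.0102) and *Brms1* higher (0.86, SE 0.18, edgeR adjusted p = 0.0176). *Ing1* was also lower in Ep400 than in Kat5 ko clones (−0.95, SE 0.21, edgeR adjusted p = 0.0453). Between the knockouts, 0 of these 18 were called without Kat5 ko clone 2 or 3 or without Ep400 ko clone 1, 2 or 3. In these fits, 0.571%, 0.0356%, 2.45%, 0.207% and 0.0218% of all genes were called. Of 18 MYC cofactors, only the targeted gene was called in either comparison with wildtype. *Kat5* fell in Kat5 ko clones (−1.40, SE 0.17, edgeR adjusted p = 0.0207) and *Ep400* in Ep400 ko clones (−1.44, SE 0.12, edgeR adjusted p = 0.00120). Between the knockouts, *Smarca4*, a remodeling ATPase of the SWI/SNF complex, was lower in Ep400 ko clones as well (−0.88, SE 0.20, edgeR adjusted p = 0.0479). Without Kat5 ko clone 3 (0.0356% of all genes called) or Ep400 ko clone 2 (0.207%) or 3 (0.0218%), 0 cofactors were called lower there.

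Of 19 genes for turnover of the MYC protein, 0 were called in Kat5 ko clones (0.625% of all genes), where 9 had an unadjusted p of at most 0.05 (22.3% of all genes). There were 2 called in Ep400 ko clones (13.7% of all genes) and 3 between the knockouts (7.05%). The deubiquitinase subunit *Usp22* (−0.88, SE 0.20, edgeR adjusted p = 0.0235) and the ubiquitin ligase *Huwe1* (−0.68, SE 0.18, edgeR adjusted p = 0.0412) were lower in Ep400 ko clones. The number called lower was 0 without wildtype sample 1, 2 or 4 or Ep400 ko clone 2. In these fits, 5.85%, 7.19%, 6.06% and 10.1% of all genes were called in either direction. It was 6 without Ep400 ko clone 1 (14.3% of all genes) and 1 without clone 3 (12.3%). Against Kat5 ko clones, the phosphatase inhibitor *Set* (−1.41, SE 0.29, edgeR adjusted p = 0.0398), the deubiquitinase *Usp36* (−1.76, SE 0.38, edgeR adjusted p = 0.0415) and *Cip2a*, another phosphatase inhibitor (listed as *C330027C09Rik*, −1.27, SE 0.29, edgeR adjusted p = 0.0475), were lower in Ep400 ko clones. That count was 0 without Kat5 ko clone 2 (0.571% of all genes called) or 3 (0.0356%) or Ep400 ko clone 2 (0.207%) or 3 (0.0218%). It was 5 without Kat5 ko clone 1 (18%) and 1 without Ep400 ko clone 1 (2.45%). Of 6 glucose-responsive targets of MLX dimers, 3 were tested and 0 called by edgeR in any comparison, with 0 at an unadjusted p of at most 0.05.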

How the data were processed

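Polyadenylated RNA of 4 wildtype O9-1 samples, 3 Kat5 ko and 3 Ep400 ko clones had been sequenced. The authors deposited raw counts, that is whole numbers of reads for each gene. Their processing notes name bcl2fastq 2.20, STAR 2.7.3, DESeq2 1.36.0, R 4.2.1 and mm10. The counting program, its strand setting and the annotation release are not given in the sources used here. The deposited normalized tables were not used. Groups follow the labels.

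Counts were analysed in R 4.3.3 with edgeR 4.0.16 (filterByExpr, TMM, glmQLFit with robust dispersion and legacy deviances, glmQLFTest). Each comparison was fitted with its own groups only, and p-values were adjusted over all 13434, 13836 and 13587 genes tested (biological coefficients of variation 0.342, 0.325 and 0.409). CPM used TMM factors over all 10 libraries, log2 CPM a prior count of 2, and FPKM the union of exons in GENCODE M21 on GRCm38, which held 42462 of the 43346 genes. SE is the absolute log2-fold change divided by the square root of F. Libraries of 1 group were not repeats of each other (chi-square of counts over its degrees of freedom 26.1 to 239). The procedure was tested on simulated data in which 200 genes were changed by a known amount. At a log2 change of 1, it called 15% of them for Kat5 ko and 26.5% for Ep400 ko against wildtype, and 0% between the knockouts. At a log2 change of 2, the shares were 69.5%, 71% and 61.5%. A gene that was not called is therefore not shown to be unchanged.

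The members and gene lists were chosen with earlier results of these data known. All members and other relatives of MYC and MLX are named, of each list up to 4 called genes with the smallest adjusted p per comparison, the nearest tested neighbours of called genes, and the most alike genes. *Tfb2m* and *Thbs1* were named and the neighbours of *Bmyc*, *A230005M16Rik* and the opposite-strand genes were added after their values were seen. Alternatives covered DESeq2 1.42.0, limma 3.58.1 (voom), other scalings and filters, 1 fit of all libraries, a replicate block, chromosome offsets and each library left out. Fits without robust dispersion and with bias-adjusted deviances were added after values had been seen.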

Additional observations from a re-analysis of the deposited data

How the results depend on the processing

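Of the members called, *Mycn* in Ep400 ko clones was called in 11 of 12 alternatives and in 7 of 7 fits without 1 library. With a replicate block it was not (log2-fold change −4.16, adjusted p = 0.0636), nor was *Bmyc* (3.82, adjusted p = 0.0597 in edgeR's quasi-likelihood test), and the count of members called was 0, with 166 genes called in all. The labels do not say whether same-numbered libraries were handled together. Their residuals correlated at −0.102 to 0.225, and a shared batch was not tested. With chromosome offsets 2 members were called (*Mycn* and *Mxi1*). Leaving out 1 library gave 1 to 2 calls in Ep400 ko clones, with 2 (*Mycn* and *Mxi1*) without clone 3 (12.3% of all genes called). In Kat5 ko clones it gave 0 to 6, with 6 without clone 1 (19.4% of all genes called). Between the knockouts it gave 0 to 1, with 1 (*Mxd4*) without Kat5 ko clone 1 (18% of all genes called). DESeq2 called 3 in Kat5 ko clones and 3 between the knockouts, where no filter gave 1 (*Mycn*, with 6.47% of all genes called) and 1 fit of all libraries 2 (*Mycn* and *Mxd1*, with 25.3% of all genes called). The cause of these shifts was not tested.

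Signs turned only for genes that were not called in that comparison. In Kat5 ko clones *Mlx* was −0.018 with limma-voom, −0.047 with upper quartile scaling, −0.037 with library size alone, −0.0039 for mean counts of at least 100, −0.018 with the replicate block and −0.023 with chromosome offsets, and −0.090 to 0.24 without 1 library. *Bmyc* was −2.40 to 0.47 without 1 library. In Ep400 ko clones *Max* was −0.017 with DESeq2, −0.026 with limma-voom, −0.016 with RLE, −0.036 without filter, −0.022 with the block, −0.0078 with offsets and −0.21 to 0.11 without 1 library. *Mxd3* was −0.016, −0.046, −0.016, −0.033, −0.13 and −0.13 in that order, −0.00024 with bias-adjusted deviances and −0.18 to 0.23 without 1 library. *Mycl* was −0.040 with the block, and *Mnt* 0.051 and *Mlx* 0.017 with offsets. Without 1 library, *Mycl* was −0.47 to 0.55, *Mnt* −0.39 to 0.068 and *Mxd4* −0.078 to 0.96. Between the knockouts *Mxi1* was −0.12 with offsets and *Mnt* −0.12 to 0.47 without 1 library. Read depth limits the values of *Mycn* and *Bmyc*, and the length used limits the order of *Mlx*, *Max*, *Mnt* and *Mxi1*.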
